A study of Mus musculus with 9 samples.

Results

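Macrophages kept for 7 days in 1% oxygen (chronic hypoxia) were compared with macrophages kept for 7 days in standard oxygen, across all genes with a mean of at least 1 TPM over the libraries of both groups. TPM is the length-corrected share of a gene in all transcripts of a library, scaled to a fixed sum. The comparison held 6 of the 9 samples of the series, 3 in each group, and 11067 of the 34866 genes listed passed this level. The other 3 samples, exposed to 1% oxygen for 3 hours, were not compared here. The cells are labelled as mouse primary macrophages grown in vitro, and strain, age, sex and tissue of origin are not given in the sources used here. Every culture, controls included, was grown in alpha-MEM with serum and L929-conditioned medium. L929 is a mouse fibroblast line that secretes the macrophage growth factor CSF1. Polyadenylated RNA was sequenced. Each chronic library shares 4 digits of its column name with 1 standard oxygen library, and these pairs are called A (standard replicate 2 and chronic replicate 3), B (both replicates 1) and C (standard replicate 3 and chronic replicate 2). What the digits stand for is not stated, nor is it stated that replicates came from separate animals, so the p-values measure the spread between these samples, which may be technical.

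Cells sense oxygen through prolyl hydroxylases of the EGLN family, which use oxygen to mark the alpha subunits of the hypoxia-inducible factors (HIF) for destruction through the VHL protein. When oxygen is scarce the alpha subunits persist, bind DNA with their beta partner and switch on genes for glucose uptake, glycolysis, mitophagy, blood vessel growth and, as a brake, the EGLN enzymes themselves. Macrophages meet low oxygen in wounds, tumours and inflamed tissue, and there they clear dying cells, recycle iron and remodel the matrix. The comparison asks what the transcript pool of such cells looks like after a long stay in low oxygen.

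The libraries had most but not all of the listed markers of their label. The summed level of 12 macrophage markers lay between 62100 and 71000 TPM in every library. Most of it was Lyz2, whose value is uncertain, with 5.96% of its sequence shared. Among the other members, Csf1r was at 439 to 778 TPM, Adgre1 at 253 to 581 TPM and Cd68 at 1050 to 1530 TPM. Cd163 was at most 1.27 TPM, and Mrc1 ranged from 0.255 to 39 TPM. Fibroblast, T and NK cell, B cell, erythroid and mast cell markers summed to at most 2.15 TPM in any library. Of 11 neutrophil markers, S100a8 gave nearly all of the signal, and it fell from 1590, 912 and 895 TPM (pairs A, B and C) to 582, 274 and 258 TPM. The endothelial sum was Pecam1, the osteoclast sum mainly Mmp9 and the dendritic sum mainly Bst2, each a gene that macrophages also express. Both libraries of pair A stood apart from the other 4: the first principal component, 40% of the variance, separated this pair, and the second, 33.3%, separated chronic hypoxia from standard oxygen. In pair A the monocyte markers summed to 334 TPM in standard oxygen and 1120 TPM in chronic hypoxia, against 53.8 to 110 TPM in the other libraries, while Mertk was at 3.37 and 2.59 TPM against 25.9 to 33.3 TPM. In each library 10724 to 11208 genes had at least 1 TPM, and the 10 most abundant genes held 24.9% to 30.6% of a standard oxygen library and 18.7% to 24.7% of a chronic one.

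Each gene was tested within pairs (limma on log2(TPM + 1), with the pair as a block), and a gene was called changed at a Benjamini-Hochberg adjusted p under 0.05 over all genes tested. In chronic hypoxia 2039 genes changed, 18.4% of those tested. Of these, 1674 rose (15.1%) and 365 fell (3.3%), and 383 changed by at least 1 on the log2 scale. Without the block, 298 genes changed (2.69%), 232 higher (2.1%) and 66 lower (0.596%), and all 298 were among the 2039. The 3 samples of 1 group lay wholly above those of the other in 24.2% of genes for chronic hypoxia and wholly below in 5.39%. Leaving out pair A gave 3422 changed genes (2729 higher, 693 lower) and leaving out pair B gave 162 (122 and 40). Leaving out pair C gave 4 (4 and 0), and each of these fits had 1 residual degree of freedom in place of 2. A list's counts without a pair, given below, read against these counts of all 11067 genes.

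The median log2 fold change of all genes was 0.16, and the split of the calls moved with the scaling. Fth1, which encodes the ferritin heavy chain, was the most abundant transcript of 2 of the 3 standard oxygen libraries and fell by 30700 TPM in the mean, and Ftl1, the ferritin light chain, whose value is uncertain because most of its sequence is shared with other listed genes, fell by 19900 TPM. Since TPM sums to a constant, such a loss can raise the values of other genes. Median-of-ratios rescaling centres the median of all genes by its method, here at -0.002, so a more even split of the calls follows in part from the method. After it 1267 genes changed (11.4%), 612 higher (5.53%) and 655 lower (5.92%). Of the changed genes, 82.1% were higher on the deposited scale and 48.3% after the rescaling. No gene changed in opposite directions under both scalings, and 976 genes were called under both. Counts after rescaling are given beside each gene group below. A list's count from all pairs with the block reads against the shares of all genes. These were 15.1% higher and 3.3% lower as deposited and 5.53% and 5.92% after rescaling. Of the single genes named below as risen, Pfkfb4, Pkm, Suclg2, Rpia, Pgls, Mcm5, Pf4, Ccr1, Lrp1, Spn and Atp6v0d2 were not called after rescaling, nor were Hif1a, Vhl, Keap1 and F10. Without pair C the only lists with called members were those of metalloproteinases (1), clotting (2) and alternative activation (1). Some lists below also give members at an unadjusted p under 0.05. The share of all genes at that level was not counted, so those counts have no background to read against.

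**Figure D1:**
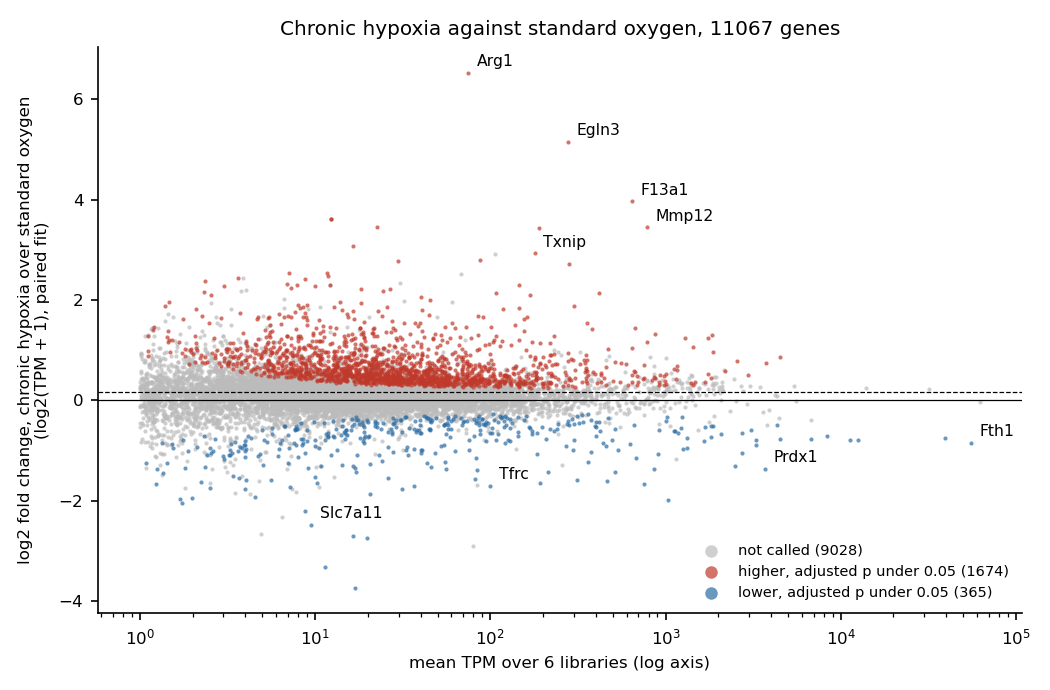
Log2 fold change of chronic hypoxia over standard oxygen (log2(TPM + 1), paired fit) against the mean TPM over 6 libraries (log axis), 1 point per gene for 11067 genes. Red points (1674) are called higher and blue points (365) lower, the dashed line marks the median of 0.16, and the highest points are Arg1, Egln3 and F13a1, while Fth1 at the far right lies below 0.

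The genes that rose most, by a rule that asked for a call with and without the block, a mean of at least 10 TPM and no overlap between groups, were of mixed function. Arg1, which encodes the arginine-cleaving enzyme arginase 1, was at 0.535 to 0.713 TPM in standard oxygen and 130 to 176 TPM in chronic hypoxia. Egln3, an oxygen-dependent prolyl hydroxylase gene, and F13a1, the coagulation factor XIII A chain gene, came next with log2 fold changes of 5.16 and 3.98. Serpinf1 (ENSMUSG00000000753), which encodes the secreted antiangiogenic serpin PEDF, was at 0.329, 1.29 and 1.46 TPM in standard oxygen and at 16.9, 31.7 and 22.5 TPM in chronic hypoxia (pairs A, B and C). The groups lay far apart, and the log2 fold change was 3.61 ± 0.156 (SE, limma adjusted p = 0.00437). Gja1 (ENSMUSG00000050953), the gap junction protein connexin 43, went from 1.2, 0.559 and 0.438 TPM to 45.4, 13.3 and 12.6 TPM. It was nearly absent in every standard oxygen library and highest in the chronic library of pair A (log2 fold change 3.61 ± 0.277, adjusted p = 0.00754).

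Lsp1 (ENSMUSG00000018819), an actin-binding protein of leukocytes, rose from 43.7, 26.3 and 25.8 TPM to 282, 371 and 389 TPM, a mean ratio of 10.9. Tnfrsf9 (ENSMUSG00000028965), the costimulatory receptor 4-1BB, rose from 2.51, 3.31 and 2.1 TPM to 38.2, 28.9 and 23.1 TPM. Txnip (ENSMUSG00000038393), a thioredoxin-binding brake on glucose uptake, was at 91.2 TPM in the standard library of pair A and at 26.6 and 24.6 TPM in the others, and reached 248, 343 and 343 TPM in chronic hypoxia. Of these, Txnip had the widest error, with a log2 fold change of 2.94 ± 0.489 (SE, adjusted p = 0.0244), and its change in pair A was the smallest of the 3 pairs. Ankrd37, an ankyrin repeat gene known as a HIF target, Gpr141, an orphan receptor, Cadps, a protein that primes vesicles for release, and Rgs11, a regulator of G protein signalling, rose by 2.79, 2.79, 2.55 and 2.49 on the log2 scale. The rule itself fixes that these 12 genes were higher in every pair, and all 12 were also called after rescaling.

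The genes that fell most by the same rule included detoxification, iron uptake, lipid and chemokine genes. Il1f9, an interleukin-1 family cytokine gene, and Wfdc17, a secreted whey acidic protein gene, fell by 2.69 and 1.98 on the log2 scale. Gsta3 (ENSMUSG00000025934), a glutathione transferase, was at 19, 39.1 and 42 TPM in standard oxygen and at 8.36, 7.93 and 7.48 TPM in chronic hypoxia (log2 fold change -1.87 ± 0.262, SE, limma adjusted p = 0.0183). Gadd45b (ENSMUSG00000015312), a stress-induced gene, fell from 39.1, 56.9 and 51.1 TPM to 13, 14.3 and 13.2 TPM. Chchd10 (ENSMUSG00000049422), a protein of the mitochondrial intermembrane space, fell from 39, 67.2 and 63.5 TPM to 11.8, 20.6 and 17.1 TPM. In both genes the groups were well separated and the standard library of pair A was the lowest of its group.

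Fabp4 (ENSMUSG00000062515), the macrophage and adipocyte fatty acid binding protein, fell from 250, 305 and 319 TPM to 99.8, 86 and 90.2 TPM. Its log2 fold change was -1.65 ± 0.122 (SE, limma adjusted p = 0.00713). Pparg, the nuclear receptor that drives Fabp4 in these cell types, had 33.8, 34.5 and 33.9 TPM in standard oxygen and 13.6, 16.9 and 12.2 TPM in chronic hypoxia, with little spread in the first group (-1.22 ± 0.106, adjusted p = 0.00921). Ccl3 (ENSMUSG00000000982), the chemokine MIP-1 alpha, fell from 1010, 650 and 594 TPM to 233, 317 and 267 TPM. Ccrl2, an atypical chemokine receptor, Nfkbid, a nuclear inhibitor of NF-kappaB, Slco4a1, an organic anion transporter, Tfrc, the transferrin receptor, and Gclm, a glutathione synthesis gene, completed the 12, with log2 fold changes of -1.53, -1.57, -1.54, -1.70 and -1.42. All 12 were also called after rescaling.

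**Figure D2:**
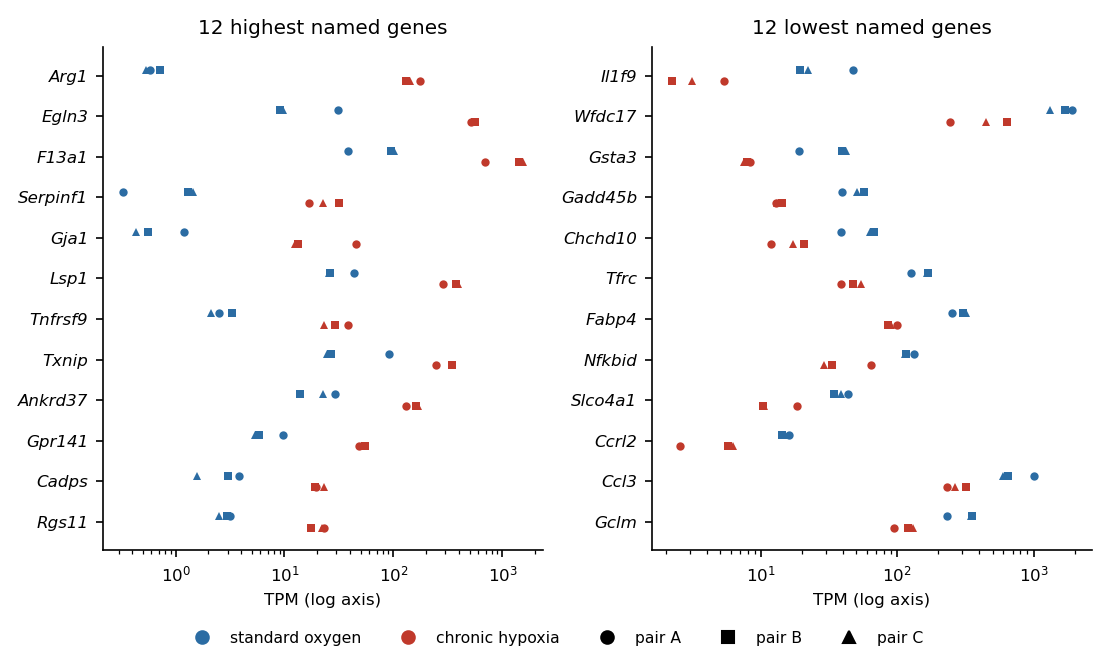
TPM (log axis) of the 12 highest and 12 lowest genes of the naming rule in each of the 6 libraries, with 1 point per library, blue for standard oxygen and red for chronic hypoxia, and the marker shape giving the pair. In every gene the 3 red points lie on 1 side of the 3 blue points, which the rule itself fixes. The circles of pair A often lie apart from the other 2 of their colour, as in Txnip and Gja1.

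Of 37 hypoxia-induced genes known from other systems, 32 were tested, 25 rose and 1 fell, against 15.1% and 3.3% of all genes. Their median log2 fold change was 1.10 against 0.16 for all genes, 20 rose and 1 fell after rescaling, and 15 rose and 1 fell without the block. Without pair A there were 29 higher and 1 lower, without pair B there were 14 and 0. Without pair C limma called 0 of either, while 25 higher and 1 lower had an unadjusted p under 0.05. Bnip3, a mitophagy receptor, rose from 102, 57.9 and 62.6 TPM to 411, 529 and 516 TPM (log2 fold change 2.73 ± 0.244, SE, limma adjusted p = 0.00921), with 15.3% of its sequence shared with another gene and its value therefore uncertain. Stc2, which encodes the secreted glycoprotein stanniocalcin 2, was at most 0.145 TPM in standard oxygen and 5.94, 3.91 and 3.98 TPM in chronic hypoxia. Egln1, the main HIF prolyl hydroxylase, rose from 32.2, 27.5 and 31.1 TPM to 81.4, 93.8 and 96.4 TPM, and Ero1l, which forms disulphide bonds in the endoplasmic reticulum, by 1.63 on the log2 scale. Neither gene had overlapping groups.

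Not all members followed. Car9, the carbonic anhydrase often used as a hypoxia marker, was at 14.6, 9.92 and 15.8 TPM in standard oxygen and 17, 11.6 and 10.9 TPM in chronic hypoxia, with overlapping groups. Its log2 fold change was -0.03 with an adjusted p of 0.911 (limma). Bnip3l, the paralogue of Bnip3 and also uncertain for shared sequence, and P4ha1, a collagen prolyl hydroxylase, had positive values of 0.35 and 0.63 that did not pass. The 1 member that fell was Pfkfb3, which makes the allosteric activator of phosphofructokinase. It was at 42.5, 51.9 and 53.1 TPM in standard oxygen and 25.4, 23.7 and 24.8 TPM in chronic hypoxia (-0.96 ± 0.103, SE, adjusted p = 0.0122), while its paralogue Pfkfb4 rose by 0.65. Among the HIF subunits and their regulators, Hif1a rose by 0.42 and Vhl by 0.50, neither of them after rescaling (adjusted p 0.0877 and 0.0773), and Epas1 was at 0.16 with an adjusted p of 0.2.

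The promoter letters that HIF is known to bind, ACGTG on either strand, were looked for in the 250 bases before each RefSeq start site (build GRCm38.p6), for the 8507 of 11067 genes with such an entry. Of the hypoxia-induced genes, 17 of 27 with an entry held a match (63%), against 25.7% of all genes, 27.5% of the genes called higher and 23.1% of those called lower. By window, since a gene can have several start sites, the shares were 48.7% of 39 and 22% of 10863. A match is a description of these letters and not a bound site. The list members were chosen as genes known for this response, so their higher share can follow from that choice. It is therefore not a result of these libraries, and the same limit holds for the letters searched in 2 other lists below. The 3 called members of highest log2 fold change with a match are shown because they are also the steepest responses of the list, with the matches in capitals: Egln3 at chr12:54203875-54204124 (minus strand), Ak4, an adenylate kinase gene of mitochondria that rose by 3.45 (uncertain, with 9.61% of its sequence shared), at chr4:101419453-101419702 (plus strand), and Ankrd37 at chr8:45999851-46000100 (minus strand). In Ak4 the letters read the same on both strands, so the 2 matches overlap, and in Ankrd37 the second match lies directly before the start.
Egln3: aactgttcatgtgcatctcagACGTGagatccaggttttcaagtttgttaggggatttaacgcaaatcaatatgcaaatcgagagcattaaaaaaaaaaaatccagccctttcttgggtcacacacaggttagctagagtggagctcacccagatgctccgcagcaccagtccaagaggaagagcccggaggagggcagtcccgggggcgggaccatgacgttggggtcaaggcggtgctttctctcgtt
Ak4: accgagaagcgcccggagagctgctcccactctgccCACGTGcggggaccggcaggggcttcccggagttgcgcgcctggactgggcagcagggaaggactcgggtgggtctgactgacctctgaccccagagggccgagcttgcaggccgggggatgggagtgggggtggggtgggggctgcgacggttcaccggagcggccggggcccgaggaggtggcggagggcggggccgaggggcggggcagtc
Ankrd37: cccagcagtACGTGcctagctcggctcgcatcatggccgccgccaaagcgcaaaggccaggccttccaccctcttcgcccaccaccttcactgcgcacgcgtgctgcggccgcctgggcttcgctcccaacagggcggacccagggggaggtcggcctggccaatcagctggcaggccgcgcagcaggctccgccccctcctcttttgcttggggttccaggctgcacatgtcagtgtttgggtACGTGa

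Genes of glucose handling rose. Of 19 tested genes for glycolytic enzymes and glucose or lactate transport, 16 rose and 0 fell, with a median of 0.92, and 14 rose after rescaling, while 4 passed without the block. Without pair A there were 16 higher, without pair B there were 5 and without pair C there were 0. Slc16a3, the lactate exporter MCT4, rose from 240, 88.4 and 86.7 TPM to 549, 390 and 437 TPM. The highest standard library, that of pair A, was still below every chronic one (log2 fold change 1.88 ± 0.232, SE, limma adjusted p = 0.0149). Tpi1 (1.44), Pfkl (1.28) and Gpi1 (1.17) rose along the pathway, and Pfkp, another phosphofructokinase isoform, rose by 0.92. Pfkm, the muscle isoform, was at 0.09 and did not pass, nor did 2 other members. Ldha, Gapdh, Pgk1, Pgam1, Eno1 and Pkm also rose, but each shares at least 5% of its sequence with another listed gene, and their sizes are uncertain.

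Pdk1, the kinase that turns off pyruvate dehydrogenase, rose from 55.2, 52.2 and 52.2 TPM to 148, 151 and 148 TPM, with almost no spread within either group (log2 fold change 1.47 ± 0.0643, SE, limma adjusted p = 0.00437). The next genes are those behind that gate. Of 22 genes of pyruvate dehydrogenase and the tricarboxylic acid cycle, 1 rose (Suclg2, a succinate-CoA ligase subunit, uncertain for shared sequence) and 0 fell. After rescaling 0 rose and 6 fell, so that the calls depend on the scaling. Their median was below that of all genes both times, at -0.08 against 0.16 and at -0.26 against -0.002. Of 73 nuclear genes for the respiratory chain and ATP synthase, 2 rose and 1 fell (0 and 3 after rescaling), with a median of -0.02. The 1 that fell was Ndufa4, a cytochrome oxidase subunit. It was at 200, 210 and 213 TPM in standard oxygen and 136, 132 and 141 TPM in chronic hypoxia, with separate groups (-0.61 ± 0.0629, adjusted p = 0.0119). In fatty acid oxidation, Cpt1a, the gate for entry into mitochondria, rose by 0.66 and Acads fell by 0.39, and the other 16 of 18 did not pass. Of 7 pentose phosphate genes, Rpia and Pgls rose and Pgd and Taldo1 fell, and after rescaling 0 rose and 4 fell.

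Transcripts of the mitochondrial genome fell. All 13 protein genes had negative values and 12 passed, with a median of -0.66, and 13 fell after rescaling. Limma called 0 of them without the block, where 11 had an unadjusted p under 0.05, and 12, 0 and 0 without pairs A, B and C. These genes held 5.69%, 5.15% and 4.41% of the standard oxygen libraries and 3.78%, 2.98% and 2.61% of the chronic ones, with no overlap. mt-Nd1, a complex I subunit, was at 2820, 2610 and 2180 TPM in standard oxygen and 2030, 1510 and 1320 TPM in chronic hypoxia. Its log2 fold change was -0.66 ± 0.0924 (SE, limma adjusted p = 0.0181). The cytochrome oxidase subunit gene mt-Co1, uncertain with 39.8% of its sequence shared, fell by 0.78 (limma adjusted p = 0.0167, and 0.0794 without the block). Of the 13 genes, 8 share at least 5% of their sequence with another listed gene, and nuclear copies of mitochondrial DNA could take some of their reads. Of 78 mitochondrial ribosome genes 5 rose and 2 fell (0 and 5 after rescaling).

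Of the iron genes, none rose in the fit over the 3 pairs. Of 14 tested, 7 fell, with a median of -0.39, and 8 fell after rescaling, while 1 passed without the block. Without pairs A, B and C there were 8, 1 and 0 lower, and 1 higher in the first case. Tfrc (ENSMUSG00000022797), the receptor that brings transferrin-bound iron into the cell, was at 127, 169 and 166 TPM in standard oxygen and at 39, 47.2 and 54 TPM in chronic hypoxia. The groups did not overlap, which the naming rule asked for, and the log2 fold change was -1.70 ± 0.0736 (SE, limma adjusted p = 0.00437). Fth1 was at 55200, 81000 and 76400 TPM in standard oxygen and 27900, 49100 and 43400 TPM in chronic hypoxia (-0.84 ± 0.132, adjusted p = 0.0226). Iron regulatory proteins are known to stabilise the Tfrc transcript and to block translation of ferritin when iron is scarce. The transcript of the regulator Ireb2 (0.30) did not pass. The iron transporters Slc11a1 and Slc11a2, the haem transporter Slc48a1 and the haem oxygenase gene Hmox1 fell by 0.42 to 0.51.

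NRF2 is a transcription factor that KEAP1 holds back and that drives genes for glutathione and thioredoxin. The list of NRF2 and antioxidant genes also holds Keap1, Nfe2l2 and other antioxidant genes such as Sod1, so it is not a list of NRF2 targets only. Of its 27 members tested, 15 fell and 1 rose, with a median of -0.51, and 17 fell and 0 rose after rescaling. Without the block 7 fell, without pair A there were 20 lower and 3 higher, without pair B there were 6 and 0. Without pair C limma called 0, while 15 lower and 1 higher had an unadjusted p under 0.05. Slc7a11, the cystine importer, was at 29.6, 10.5 and 10.6 TPM in standard oxygen and 4.15, 0.986 and 1.32 TPM in chronic hypoxia (-2.48 ± 0.115, SE, limma adjusted p = 0.00465). Gclm (ENSMUSG00000028124), the modifier subunit of the first enzyme of glutathione synthesis, was at 233, 352 and 350 TPM and then at 94.2, 120 and 130 TPM. Its groups were separate, which the naming rule asked for. The catalytic subunit Gclc fell by 0.56. Srxn1, which repairs oxidised peroxiredoxins, was at 93.1, 104 and 103 TPM in standard oxygen and 49.4, 48.3 and 53 TPM in chronic hypoxia. Txnrd1, thioredoxin reductase, fell by 0.79, Cat, catalase, by 1.07, and Gpx1, a glutathione peroxidase, by 0.52. The gene that rose was Keap1 (0.46, adjusted p = 0.0251, and 0.0806 after rescaling), and Nfe2l2, which encodes NRF2, did not pass (0.13).

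The antioxidant response letters TGACNNNGC were searched on both strands in the same windows. They were present in 7 of 22 genes of this mixed list (31.8%), against 13.9% of all genes and 16.6% of those called lower. The 3 called members of largest fall with a match are shown, with the match in capitals, to show the letters and their place: Gsta3 at chr1:21240335-21240584 (plus strand), Gclm at chr3:122245307-122245556 (plus strand), and Prdx1, an abundant peroxiredoxin that fell by 1.36, at chr4:116685349-116685598 (plus strand). The match of Gclm and that of Prdx1 run on the opposite strand. Prdx1 shares 5.63% of its sequence with another gene.
Gsta3: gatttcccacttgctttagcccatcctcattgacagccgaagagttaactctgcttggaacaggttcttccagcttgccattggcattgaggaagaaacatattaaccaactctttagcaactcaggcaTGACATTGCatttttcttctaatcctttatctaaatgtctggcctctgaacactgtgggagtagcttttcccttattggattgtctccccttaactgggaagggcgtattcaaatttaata
Gclm: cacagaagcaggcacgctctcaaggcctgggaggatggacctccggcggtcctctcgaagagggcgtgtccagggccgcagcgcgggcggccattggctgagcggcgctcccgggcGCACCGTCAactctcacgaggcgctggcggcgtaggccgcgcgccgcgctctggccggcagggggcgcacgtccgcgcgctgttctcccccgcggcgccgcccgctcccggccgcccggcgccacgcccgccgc
Prdx1: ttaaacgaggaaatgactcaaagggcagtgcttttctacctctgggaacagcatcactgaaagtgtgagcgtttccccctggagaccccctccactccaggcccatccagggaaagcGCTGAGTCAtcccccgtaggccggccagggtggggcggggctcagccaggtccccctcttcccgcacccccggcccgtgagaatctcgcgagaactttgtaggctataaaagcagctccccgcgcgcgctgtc

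**Figure D3:**
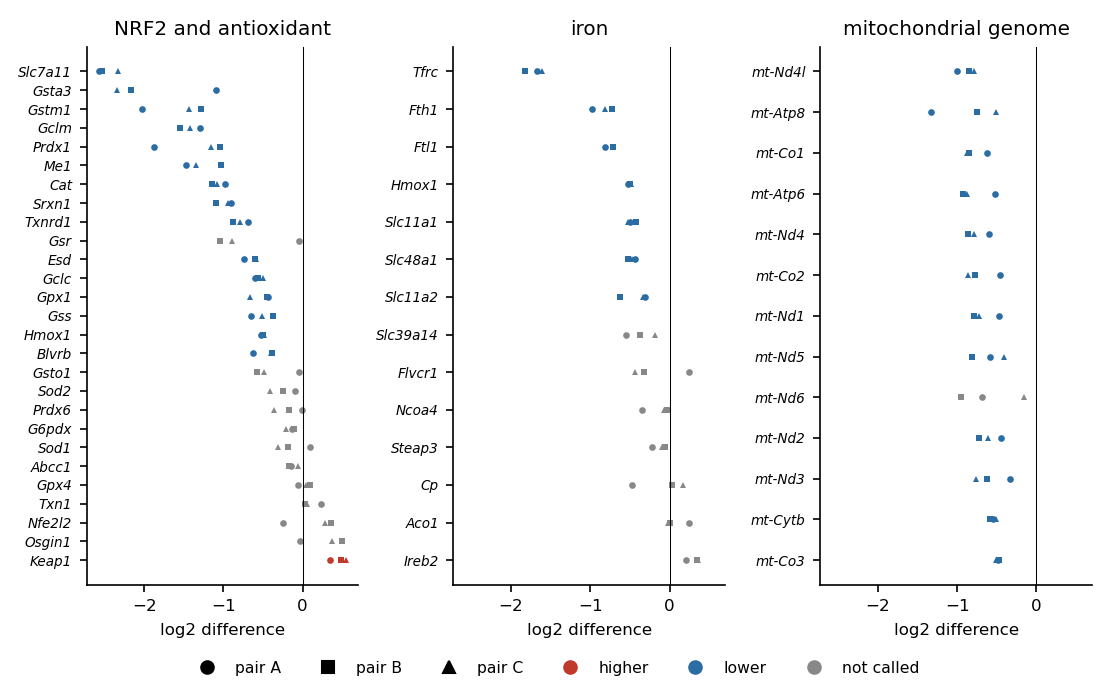
Log2 difference of log2(TPM + 1), chronic hypoxia minus standard oxygen, for each gene of 3 groups and each pair (marker shapes), coloured blue where the gene was called lower, red where called higher and grey where not called. Of the NRF2 and antioxidant genes 15 are blue and 1 is red, of the iron genes 7 are blue, and of the mitochondrial genome 12 of 13 are blue.

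Genes of cell division were higher after 7 days of hypoxia. Of 35 mitosis and G2/M genes, 32 rose and 0 fell in the paired fit, with a median log2 fold change of 1.16, and 32 rose after rescaling. All 35 were higher in 3 of 3 pairs, as were 5178 of all 11067 genes. In 29 of the 35 the chronic group lay wholly above the other, against 24.2% of all genes. Limma called 0 without the block, where 29 had an unadjusted p under 0.05 and the adjusted p of Ccnb2 was 0.0538. Without pair A there were 32 higher, without pair B there were 16. Without pair C limma called 0, with 34 at an unadjusted p under 0.05. Ccnb2 (ENSMUSG00000032218), a cyclin that drives entry into mitosis, was at 10.3, 4.99 and 5.28 TPM in standard oxygen and 47.2, 21 and 21.8 TPM in chronic hypoxia (1.94 ± 0.0926, SE, limma adjusted p = 0.00465). Both libraries of pair A were above the others of their group, and the groups did not overlap. Mki67, the proliferation marker Ki-67, showed the same layout, at 10.4, 4.81 and 4.68 TPM and then 28.9, 14.3 and 15.5 TPM.

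Kif23 (1.81), Espl1 (1.90), Cdc20 (1.60) and Plk1 (1.49), which act in cytokinesis, chromatid separation and mitotic exit and entry, also rose, and Cdk1 rose by 0.86. Ttk, a spindle checkpoint kinase, was the lowest of the list at 0.48 and did not pass, nor did Cdc25c (0.75) and Cenpf (1.08). Values of S-phase genes were smaller: of 39 DNA replication genes 14 rose and 0 fell, with a median of 0.43, and 7 rose and 1 fell after rescaling. Limma called 0 of them without the block (12 higher and 1 lower at an unadjusted p under 0.05) and 0 without pair B. Tk1, thymidine kinase, rose by 1.11 and Mcm5, a subunit of the replicative helicase, by 0.42, while Ccne1 (0.01) and Pcna (-0.16, with 23.7% of its sequence shared) did not pass. The difference between the 2 lists was not tested. In bulk RNA, more dividing cells and more of these transcripts per cell cannot be told apart. The monocyte markers, which were also higher in chronic than in standard oxygen in each pair by their sum, were 334 and 1120 TPM in pair A, 63.7 and 110 TPM in pair B and 53.8 and 93 TPM in pair C. Most of this sum was Ly6c2, which was not called (adjusted p = 0.103). Of the 5 of 7 markers tested, Spn and Cx3cr1 rose and Treml4 fell by 1.76, and their part in the mitosis genes was not tested.

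The letters TTTGAA, the cell cycle homology region known from promoters of mitotic genes, were present on either strand in 13 of 28 mitosis genes with a RefSeq entry (46.4%), against 13% of all genes and 14.8% of the genes called higher. The windows of the 3 called members of highest log2 fold change with a match are printed with the match in capitals, to show where in the promoter it lies: Ccnb2 at chr9:70421555-70421804 (minus strand), Espl1 at chr15:102296043-102296292 (plus strand) and Cdc20 at chr4:118437344-118437593 (minus strand). In Espl1 the match begins 27 bases and in Cdc20 18 bases before the start site, while in Ccnb2 it lies 167 bases before it.
Ccnb2: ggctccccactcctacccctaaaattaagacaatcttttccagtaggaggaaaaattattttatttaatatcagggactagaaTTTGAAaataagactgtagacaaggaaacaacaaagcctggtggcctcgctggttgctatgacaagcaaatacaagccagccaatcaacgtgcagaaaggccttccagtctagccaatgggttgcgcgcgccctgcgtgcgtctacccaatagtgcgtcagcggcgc
Espl1: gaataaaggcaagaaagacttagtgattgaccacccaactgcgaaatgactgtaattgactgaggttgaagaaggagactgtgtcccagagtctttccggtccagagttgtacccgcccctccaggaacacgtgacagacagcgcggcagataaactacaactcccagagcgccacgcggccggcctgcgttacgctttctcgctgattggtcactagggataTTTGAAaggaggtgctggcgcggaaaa
Cdc20: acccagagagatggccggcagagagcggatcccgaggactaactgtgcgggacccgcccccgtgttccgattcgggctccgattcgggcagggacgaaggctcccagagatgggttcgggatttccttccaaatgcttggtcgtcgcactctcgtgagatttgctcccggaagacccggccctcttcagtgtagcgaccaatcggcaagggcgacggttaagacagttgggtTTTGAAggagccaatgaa

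**Figure D4:**
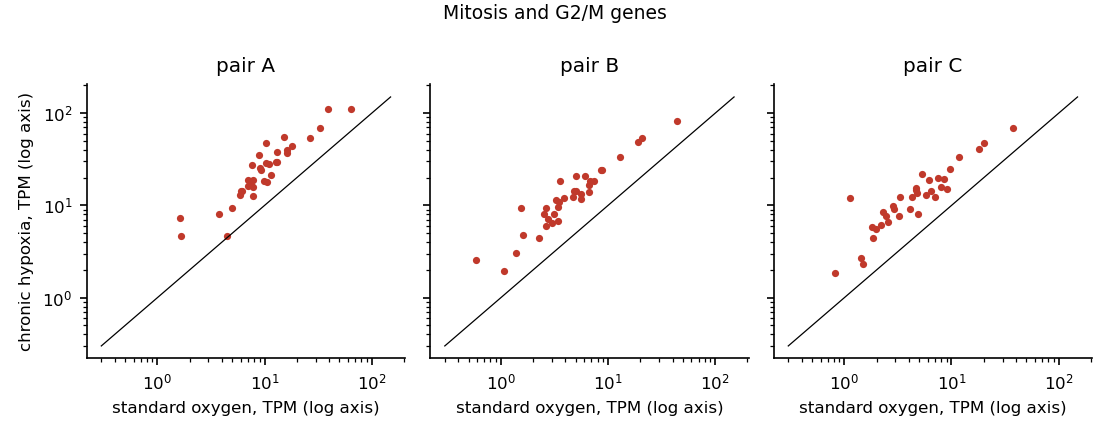
TPM in chronic hypoxia against TPM in standard oxygen (both log axes) for the 35 mitosis and G2/M genes, 1 point per gene and 1 panel per pair, with the line of equal values. In each of the 3 panels all points lie above the line, and the points of pair A sit higher on both axes.

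Secreted proteases and clotting factors were among the steepest single changes. Of 14 tested genes for metalloproteinases, their inhibitors and matrix proteins, 6 rose and 0 fell (4 and 1 after rescaling). Limma called 0 without the block, where 6 had an unadjusted p under 0.05, all higher, and 1 without pair B. Mmp12, macrophage elastase, was at 42.7, 183 and 144 TPM in standard oxygen and 402, 2160 and 1760 TPM in chronic hypoxia. The pairs differed widely in level and little in their change (log2 fold change 3.46 ± 0.101, SE, limma adjusted p = 0.00228, and 0.0742 without the block). Mmp8, a collagenase, rose by 2.05, and Mmp9, a gelatinase, rose from 1930, 981 and 984 TPM to 2780, 2270 and 2230 TPM. Of 6 collagen-modifying enzyme genes, P4ha2, Plod1 and P4hb rose. Lox, lysyl oxidase, was at 2.65 and 2.73 TPM in pair A and 327 to 409 TPM in the other pairs, a step between pairs with no call between groups (0.21, adjusted p = 0.139).

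Of 14 coagulation, fibrinolysis and serpin genes, 9 rose and 1 fell (5 and 2 after rescaling), and 3 rose without the block and 2 without pair B. F10, coagulation factor X, was at 145, 26.1 and 26.5 TPM in standard oxygen and 229, 144 and 141 TPM in chronic hypoxia, so that the standard library of pair A overlapped the chronic group (1.81 ± 0.378, SE, limma adjusted p = 0.0372, and 0.0582 after rescaling). The urokinase gene Plau (0.91) and its receptor gene Plaur (0.72) rose. Procr, the endothelial protein C receptor, which promotes anticoagulation, was the 1 that fell. It was at 96.6, 49.1 and 52.8 TPM in standard oxygen and 35, 27.4 and 28.3 TPM in chronic hypoxia (-1.05 ± 0.143, adjusted p = 0.0173).

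Activation markers did not move as a block. Of 10 alternative activation genes tested, Arg1, Stab1, Chil3, Clec10a and Il4ra rose and Pparg and Tgm2 fell, under both scalings, while 1 rose and 1 fell without the block. The values of Chil3 and Clec10a are uncertain because both share sequence with other genes. Arg1 stood alone in size: Stab1, a scavenger receptor, came next among the called members at 1.31. Mrc1, the mannose receptor, had a log2 fold change of 2.30 that did not pass (adjusted p = 0.0637), with 0.255 and 0.697 TPM in pair A against 2.78 and 27.2 TPM in pair B and 2.39 and 39 TPM in pair C. Of 23 inflammatory genes, 3 rose and 7 fell, and 1 rose and 10 fell after rescaling, while 0 rose and 3 fell without the block. Il1rn, the interleukin-1 receptor antagonist, fell by 0.70. Lcn2, an iron-sequestering lipocalin, went from 1500, 254 and 220 TPM to 685, 76 and 55.6 TPM, with overlapping groups (-1.60 ± 0.171, SE, limma adjusted p = 0.0122, and 0.44 without the block). Nlrp3, the inflammasome sensor, rose by 1.08. Tnf was at -0.52 (adjusted p = 0.0732) and fell after rescaling (adjusted p = 0.0488).

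Nos2, which encodes the nitric oxide synthase that competes with arginase for arginine, was at 133 TPM in the standard library of pair A and at 2.53 and 2.08 TPM in the others. In chronic hypoxia it was at 195, 39.4 and 33.4 TPM. It was higher in 3 of 3 pairs but did not pass (2.51 ± 0.638, SE, limma adjusted p = 0.0563), and the step was smallest in pair A. Of 17 chemokine and chemokine receptor genes, 5 rose and 2 fell (3 and 2 after rescaling, 0 and 2 without the block). Pf4, platelet factor 4, rose by 2.27 and the receptor gene Ccr1 by 1.69, and Ccl3 and Ccrl2 were the 2 that fell. Ccl2, the main monocyte attractant, was at 0.07 and did not pass.

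Of 27 interferon-stimulated genes, 0 were called in either direction by limma, although their median was -0.78 and 6 had an unadjusted p under 0.05, all lower. Irf7, a master regulator of this response, was at 27.9, 3.82 and 6.6 TPM in standard oxygen and 2.13, 1.84 and 1.98 TPM in chronic hypoxia (-1.77, adjusted p = 0.0657). The standard library of pair A was the high one. The same library was high for Rtp4, at 32.7 TPM against 1.9 and 2.67 TPM in the other standard libraries and 0.131 to 0.856 TPM in chronic hypoxia. Without pair A, 3 members rose and 4 fell, against 2729 and 693 of all 11067 genes. Of 6 MHC class II genes, 1 fell (H2-DMa, -0.59).

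Genes for the uptake of dying cells changed in both directions. Of 32 tested, 11 rose and 6 fell, and 4 rose and 6 fell after rescaling. Without the block 1 rose and 4 fell, and without pair B 0 and 3. On the falling side were the scavenger receptors Marco and Cd36, the bridging molecule Pros1 and the lipid-sensing receptors Nr1h3 and Pparg. The groups overlapped in Cd36 (limma adjusted p = 0.0131, and 0.479 without the block). Marco was at 2180, 4040 and 4370 TPM in standard oxygen and 786, 1720 and 1880 TPM in chronic hypoxia (-1.30 ± 0.0876, SE, limma adjusted p = 0.00689, and 0.133 without the block). Every chronic library was below every standard one. On the rising side were C1qa, the first complement component, the endocytic receptor Lrp1 (0.80), the lipid exporter Abca1 (0.95) and the engulfment GTPase Rac1 (0.64). C1qa was at 1.44 and 3.41 TPM in pair A, and rose from 66.8 to 281 TPM in pair B and from 71.9 to 443 TPM in pair C (adjusted p = 0.0287, and 0.637 without the block). Gas6, another bridging molecule, had 0.155 and 0.0512 TPM in pair A and 22.9 to 77.2 TPM elsewhere, and did not pass.

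Of 20 complement and Fc receptor genes, 7 rose and 1 fell (3 and 1 after rescaling, 2 and 0 without the block). Fcgr2b, the inhibitory Fc gamma receptor, was at 60.9, 39.7 and 39.5 TPM in standard oxygen and 135, 290 and 311 TPM in chronic hypoxia, with no overlap and a smaller step in pair A (2.31 ± 0.381, SE, limma adjusted p = 0.0241). Fcgr3, an activating receptor with 7.38% of its sequence shared, rose by 1.42. The kinase gene Syk, which acts downstream of the activating receptors, fell by 0.53, and 12 members did not pass. Of 49 lysosomal genes 5 rose and 6 fell, and 1 rose and 15 fell after rescaling, so that the calls depend on the scaling. The 5 that rose are a smaller share than the 15.1% of all genes, and the 6 that fell a larger one than 3.3%. After rescaling the 15 that fell are a larger share than 5.92%. Their median was -0.06 against 0.16 for all genes, and -0.24 against -0.002 after rescaling. Limma called 0 without the block, where 2 higher and 6 lower had an unadjusted p under 0.05. Atp6v1b2, a subunit of the proton pump, was at 1660, 1030 and 1040 TPM in standard oxygen and 697, 400 and 367 TPM in chronic hypoxia (-1.37 ± 0.0781, adjusted p = 0.00605), and 0.0686 without the block. The other pump subunits called, Atp6v1d and Atp6v1e1, fell by 0.36 and 0.51, and Atp6v0d2 rose by 0.56 (-0.086 without the block and without the standard library of pair A). Ctsc, cathepsin C, rose by 0.77 and Ctsd, cathepsin D with 29.1% of its sequence shared, fell by 0.79.

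**Figure D5:**
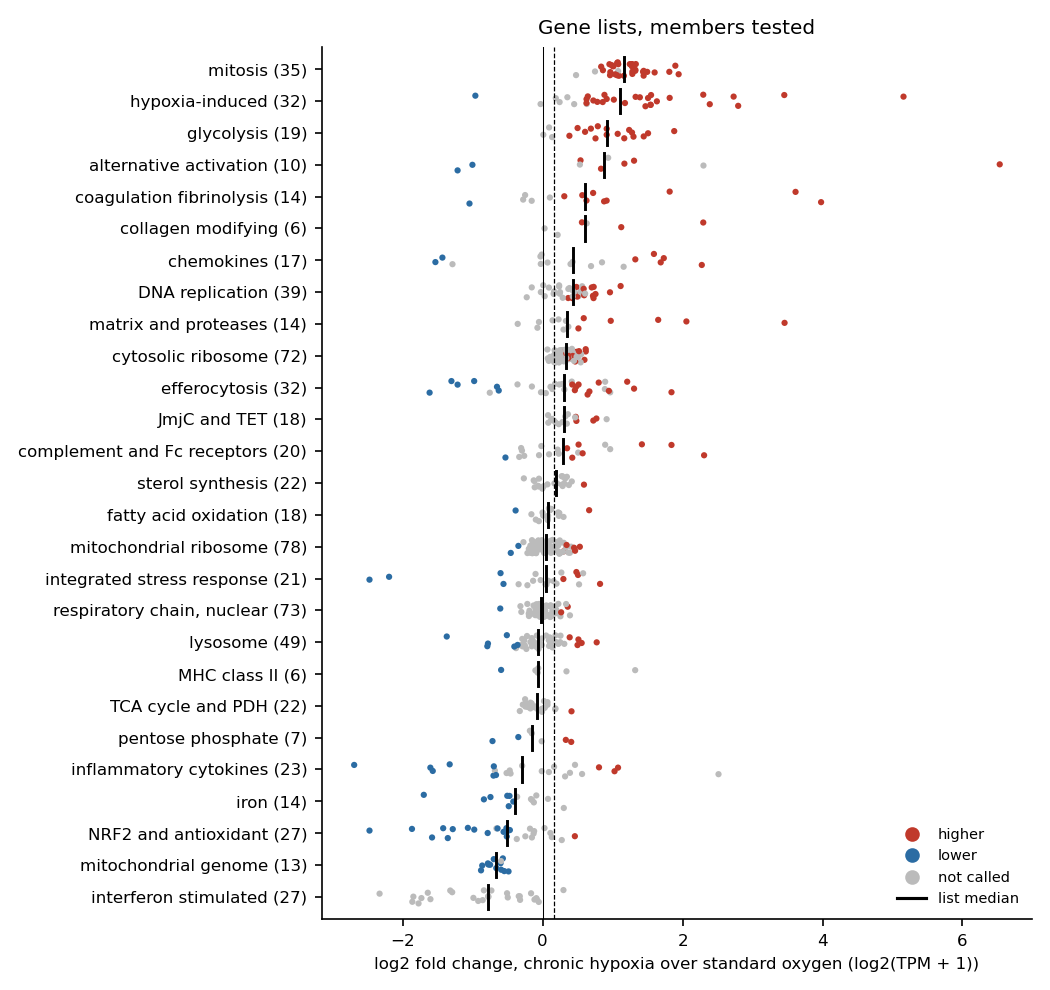
Log2 fold change of every tested member of 27 gene lists (number tested in brackets), ordered by the list median (black bar), with red for members called higher, blue for lower and grey for not called, and the dashed line at the median of all genes. Mitosis, hypoxia-induced and glycolysis genes lie furthest right, and interferon-stimulated, mitochondrial genome, NRF2 and iron genes furthest left. The medians of fatty acid oxidation, mitochondrial ribosome and integrated stress response genes are positive as deposited and negative after rescaling.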

How the data were processed

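RNA of 9 macrophage cultures was sequenced, and the 6 libraries of 2 groups were compared here. The authors deposited TPM values per gene and library, summing to the same total in each, so read depth is unknown. The submitters' processing notes name FastQC, STAR, featureCounts and GRCm38, and roles and settings are not given in the sources used here. Genes with a mean of at least 1 TPM were fitted on log2(TPM + 1) with limma 3.58.1 in R 4.3.3, with group and pair as terms, an intensity trend and Benjamini-Hochberg adjustment over all 11067. The script was tested on simulated data. Fold changes on this scale understate those of low genes, and errors are standard errors of the fit. Deviations from the group means correlated within each pair, at 0.53 (A), 0.39 (B) and 0.41 (C). Between pairs, standard B against chronic C gave 0.32 and standard C against chronic B gave 0.001, while every combination with A was negative. A gene's deviations cancel within each group, so a positive value within a pair favours negative values between pairs. The negative values are therefore no separate sign that the pairing is right. By these values pair A stood apart more clearly than B from C. The titles' replicate numbers give the same pair only for B. Rescaling divided each library by its median ratio to the genes' geometric means.

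The 12 highest and 12 lowest genes were named from those called with and without the block, with no overlap, a mean of at least 10 TPM, a protein-coding type, an informative symbol and under 5% of 75-base stretches shared with another listed gene. Values of genes sharing at least 5% are uncertain, and the text says where a named gene does. Added were each list's called extremes and its defining members. Members and gene lists were chosen with earlier results of these data known. By gene identifier, 34582 of 34866 genes had a symbol. Gene types and the transcript sequences used for shared stretches came from GENCODE, and the promoter sequences from RefSeq (GRCm38.p6). Alternatives changed the block, scaling, pseudocount, filter, variance trend, samples, fold threshold, pairs and libraries.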

Additional observations from a re-analysis of the deposited data

How the results depend on the processing

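The pairs rest on 4 digits shared by column names, and the calls rest on that block. With no replicate block 298 genes changed (232 higher, 66 lower), and with the replicate number of the titles as the block 1 changed (1 higher, 0 lower by limma), although same-numbered libraries did not all deviate together. Median-of-ratios rescaling gave 1267 (612 and 655), quantile normalization 1217 (594 and 623), rescaling with no replicate block 233 (115 and 118), no filter on low values 273 (214 and 59), and a required log2 change of 1 gave 383 (293 and 90). Leaving out 1 pair or 1 library gave 1 to 3422 changed genes, 1 to 2729 higher and 0 to 693 lower. The causes of these shifts were not tested, beyond the fewer samples of the last. The other pseudocounts, a mean of at least 5 TPM, no variance trend and all 9 samples stayed within 1.5 times of the 2039 genes. Among the 165 gene values followed across the settings, those that changed sign after rescaling, with or without the block, were Ccl2 -0.112, Ccne1 -0.159, Epas1 -0.011, Nfe2l2 -0.05 and Pfkm -0.076, and after quantile normalization -0.072, -0.188, -0.018, -0.005 and -0.102, and none of these genes was called as deposited. With 1 pair or library left out, the log2 fold change ranged from -0.086 to 1.12 for Atp6v0d2, -0.22 to 0.201 for Car9, -0.058 to 0.283 for Ccl2, -0.201 to 0.216 for Ccne1, -0.585 to 2.88 for Gas6, -1.95 to 2.47 for Lox, -0.29 to 1.73 for Ly6c2, -0.007 to 0.32 for Nfe2l2 and -0.105 to 0.257 for Pfkm. TPM keeps no read depth, so the counting error behind low values is not known.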

Other observations

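Genes of the integrated stress response, which cells switch on through the transcription factor ATF4 when amino acids or protein folding fail, make up a list of 21 tested. Of these, 4 rose and 4 fell against 15.1% and 3.3% of all genes, so that the share that rose was near that of all genes. After rescaling 1 rose and 4 fell, and without the block 1 rose and 0 fell. Eif4ebp1, which encodes a brake on the start of translation, was at 42.2, 37.7 and 41 TPM in standard oxygen and 70.4, 71.5 and 73.7 TPM in chronic hypoxia (pairs A, B and C). The groups were well apart, with a log2 fold change of 0.82 ± 0.0718 (SE, limma adjusted p = 0.00921). Psat1 (0.51), an enzyme of serine synthesis, Sesn2 (0.48), a stress sensor, and Xpot (0.30), which exports transfer RNA from the nucleus and shares sequence with another gene, also rose, but not after rescaling. Gdf15, a secreted stress hormone, went from 6.27, 20.9 and 17.8 TPM to 0.473, 3.46 and 3.74 TPM, with no overlap (-2.20 ± 0.124, adjusted p = 0.00605). Atf3, a stress-induced transcription factor, fell by 0.60 and Ppp1r15a, which restarts translation after stress, fell by 0.56. The remaining member that fell was Slc7a11, which is also an NRF2 target.

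Oxygen-dependent histone and DNA demethylases of the JmjC and TET families, some of them known HIF targets, form the next list. Of 18 tested, 4 rose and 0 fell, a share near the 15.1% of all genes, and 2 rose after rescaling and 1 without the block. Kdm3a, a histone H3K9 demethylase, was at 17.5, 15.7 and 17.2 TPM in standard oxygen and 28.5, 27.7 and 28.9 TPM in chronic hypoxia, and Jmjd6 rose by 0.77. Kdm5a (0.48) and Kdm2a (0.47) rose as deposited only. Of 22 sterol synthesis genes, Sqle, squalene epoxidase, which uses molecular oxygen, rose by 0.59 and was the only one called on the deposited scale. Of 72 cytosolic ribosome genes, 16 rose and 0 fell, but 1 rose after rescaling and 0 were called by limma without the block (24 higher at an unadjusted p under 0.05), and 58 of them share sequence with another listed gene.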
